A study of Mus musculus with 12 samples.

Results

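The genes of cholesterol synthesis and of its control by the transcription factor SREBP2 were followed in mouse bone marrow-derived macrophages (BMDMs) stimulated through the beta2-adrenergic receptor (B2AR). The 28 genes were taken by symbol and put in pathway order, 21 enzymes followed by 7 regulators, and they are 28 of the 53379 genes in the count table. BMDMs were grown for 1 week from the marrow of 4 adult male C57Bl/6J mice, in serum and medium conditioned by L929 cells, which supplies the growth factor that macrophages need. Part of the cells of each mouse stayed untreated, and others received 1 µM fenoterol, a B2AR agonist, for 1 h or 4 h without a change of medium, which gave 3 groups of 4 libraries. No group carried a transgene or a deleted allele, and all 3 groups were kept in serum, which carries lipoprotein cholesterol.

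Cholesterol is built from acetyl-CoA. Early enzymes make HMG-CoA and mevalonate, the next ones make the 5-carbon isoprenoid units and join them to farnesyl diphosphate, squalene is formed and closed to lanosterol, and a last series of steps trims lanosterol to cholesterol. Farnesyl diphosphate also leaves the pathway toward dolichol and toward the lipid anchors of proteins. SREBP2, encoded by *Srebf2*, is made as a membrane protein of the endoplasmic reticulum (ER) and is held there by SCAP and the INSIG proteins while sterol is plentiful. When sterol falls, SCAP carries SREBP2 to the Golgi, where the site-1 and site-2 proteases, encoded by *Mbtps1* and *Mbtps2*, release the part that enters the nucleus and drives the genes of the pathway.

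Because members of the pathway are known to share promoter elements, the promoters were read first, as the reference sequence of the GRCm38.p6 build from RefSeq in windows from 250 bases before to 50 bases after each start. Of the 28 genes, 24 had a window, and the 30 windows of these genes were set against all 32851 windows of the table. Those without a window were *Fdps*, *Fdft1*, *Sqle* and *Stard4*, all called higher at 4 h, so the shares below do not cover them. Letters were searched on both strands, with N for any base. The CCAAT box, bound by NF-Y, which works beside SREBP2, stood in 20 of 30 windows (66.7%) against 37.4% of all windows. The letters TGACG, the core of the element bound by CREB, stood in 12 of 30 windows (40%) against 20.8% of all, and the full palindrome TGACGTCA, which contains that core, stood in 0 of 30 against 1.79%. CACGTG was in 7 of 30 windows (23.3%) against 7.15%. A sterol regulatory element spelled TCACNCCAC was in 1 of 30 windows (3.33%) against 1.24%. These shares are a description of letters, and a gene without the letters may be bound all the same.

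Shown are up to 250 bases before the RefSeq start of *Hmgcs1*, HMG-CoA synthase, whose window held the sterol regulatory element, and of the 4 genes called higher at 1 h, *Mvk*, *Cyp51*, *Hsd17b7* and *Srebf2*. The gene starts of GENCODE M21 lie 49, 36 and 88 bases before the RefSeq starts for *Cyp51*, *Hsd17b7* and *Srebf2*, so their stretches end there, and 28 bases after it for *Hmgcs1*. The *Hmgcs1* stretch is chr13:119690101-119690350 on the plus strand, that of *Mvk* chr5:114444019-114444268 on the plus strand, that of *Cyp51* chr5:4104747-4104947 on the minus strand, that of *Hsd17b7* chr1:169969242-169969455 on the minus strand and that of *Srebf2* chr15:82147019-82147180 on the plus strand, each read 5′ to 3′ in the direction of the gene. Capitals mark, on either strand, the CCAAT box (read as ATTGG when it lies on the other strand), the core TGACG (likewise read as CGTCA), the letters CACGTG and the sterol regulatory element.
Hmgcs1: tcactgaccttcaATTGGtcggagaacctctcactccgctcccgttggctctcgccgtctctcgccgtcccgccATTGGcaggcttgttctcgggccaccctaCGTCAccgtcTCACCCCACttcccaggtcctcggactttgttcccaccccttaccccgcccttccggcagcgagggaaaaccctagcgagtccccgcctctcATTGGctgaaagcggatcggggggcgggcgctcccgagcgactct
Mvk: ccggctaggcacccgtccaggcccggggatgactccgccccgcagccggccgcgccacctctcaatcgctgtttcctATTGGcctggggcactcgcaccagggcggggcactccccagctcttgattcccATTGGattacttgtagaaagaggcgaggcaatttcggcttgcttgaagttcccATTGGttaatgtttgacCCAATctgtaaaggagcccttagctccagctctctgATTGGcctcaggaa
Cyp51: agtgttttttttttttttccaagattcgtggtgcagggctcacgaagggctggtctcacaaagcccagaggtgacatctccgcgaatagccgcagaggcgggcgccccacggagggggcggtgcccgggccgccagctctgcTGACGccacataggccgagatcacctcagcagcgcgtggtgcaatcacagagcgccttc
Hsd17b7: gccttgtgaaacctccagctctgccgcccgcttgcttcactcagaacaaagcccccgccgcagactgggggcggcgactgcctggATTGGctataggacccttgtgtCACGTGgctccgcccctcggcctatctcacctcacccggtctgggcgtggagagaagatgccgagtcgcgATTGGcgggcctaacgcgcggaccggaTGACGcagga
Srebf2: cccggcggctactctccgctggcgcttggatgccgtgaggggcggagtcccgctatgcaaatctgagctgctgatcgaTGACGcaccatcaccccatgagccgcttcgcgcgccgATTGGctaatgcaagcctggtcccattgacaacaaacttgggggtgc
In *Hmgcs1* the sterol regulatory element began 137 bases before the start and a CGTCA 147 bases before it, with 3 of the 4 CCAAT boxes of its window in the stretch shown. *Mvk* held 5 CCAAT boxes and no TGACG. *Cyp51* held TGACG 108 bases before the RefSeq start and, outside the stretch shown, CCAAT 29 bases before it. *Hsd17b7* held 3 CCAAT boxes, the one 12 bases before the start not shown, 1 TGACG and 1 CACGTG, and *Srebf2* held TGACG 172 bases before the start and a CCAAT box 135 bases before it.

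In GRCm38 (GENCODE M21), *Hmgcs1* (ENSMUSG00000093930) spans chr13:119690379-119708260 on the plus strand, *Mvk* (ENSMUSG00000041939) chr5:114444269-114460591 on the plus strand, *Cyp51* (ENSMUSG00000001467) chr5:4081145-4104746 on the minus strand, *Hsd17b7* (ENSMUSG00000026675) chr1:169949535-169969241 on the minus strand and *Srebf2* (ENSMUSG00000022463) chr15:82147181-82205379 on the plus strand. *Sqle* (ENSMUSG00000022351) lies on the same chromosome at chr15:59315077-59331192. *Mvd* (ENSMUSG00000006517) is at chr8:122433601-122443422 and *Insig1* (ENSMUSG00000045294) at chr5:28071363-28078662. All are protein-coding genes, and counts cover their exons.

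All 28 genes passed the filter on low counts and were tested among 12386 genes with edgeR's quasi-likelihood test, and a gene was called at a Benjamini-Hochberg adjusted p under 0.05. Values are normalized counts, that is, read counts per gene scaled to the mean library size, and each set of 4 values follows mice 1 to 4 (n = 4 mice in every group). Depth was 14580533 to 24153284 counts per library, of which the 28 genes took 0.126% to 0.218%. Expression of *Nr4a1*, an immediate CREB target that checks the labels, ranged from 94.4 to 162 without fenoterol, while 1 h libraries held 4288 to 4976 and 4 h libraries 164 to 315. Macrophage markers summed to 626443 to 781865 normalized counts in every library, while erythroid markers were at 0 in 3 of 3, and the T cell, B cell, NK cell and basophil sums did not pass 6.26. In bulk RNA, fewer cells of a type and less RNA per cell cannot be told apart.

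Mouse 1 stood apart for this set of genes in every condition. It had the highest of the 4 values for 20 of the 28 genes in untreated BMDMs, for 23 at 1 h and for 21 at 4 h, whereas it was the highest for 25%, 26.4% and 27.4% of all genes tested. For 18 of the 28 genes it was the highest in all 3 groups, against 6.08% of all genes, and no other mouse was highest in all 3 groups for any of the 28. *Cyp51* at 4 h, with 2302 in mouse 1 and 1227 to 1300 in the others, is an example. The sums of 2 marker lists were also highest in mouse 1 in each group. The 5 fibroblast or stroma markers summed to 1432, 1267 and 1384 normalized counts in its untreated, 1 h and 4 h libraries and to at most 1130, 1237 and 995 in the other mice, and the 7 neutrophil markers to 998, 914 and 871 against at most 752, 904 and 784. Their part in the levels of the 28 genes was not tested.

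Untreated BMDMs expressed the whole pathway, at levels that differed widely between genes. Per kb of exon, *Srebf2* was at 573 normalized counts (518.7 to 630.2 across mice) and *Ebp*, the sterol isomerase, at 545 (518 to 573), and their ranges overlapped. *Insig1*, *Hmgcs1* and *Scap* followed at 402, 393 and 384. The lowest were *Hsd17b7*, a keto-reductase of the late pathway, at 28.8, *Fdps*, farnesyl diphosphate synthase, at 17.7, and *Idi1*, the isomerase of the 5-carbon units, at 2.27. Of the 27 neighboring pairs in this order, 22 had overlapping ranges and could not be ranked beyond the spread between mice. Levels of *Idi1* and *Fdps* are uncertain, since 25.3% and 26.2% of the 50-base stretches of their transcripts also occur in other annotated genes. *Idi1* had 153 reads in all 12 libraries together.

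**Figure D1:**
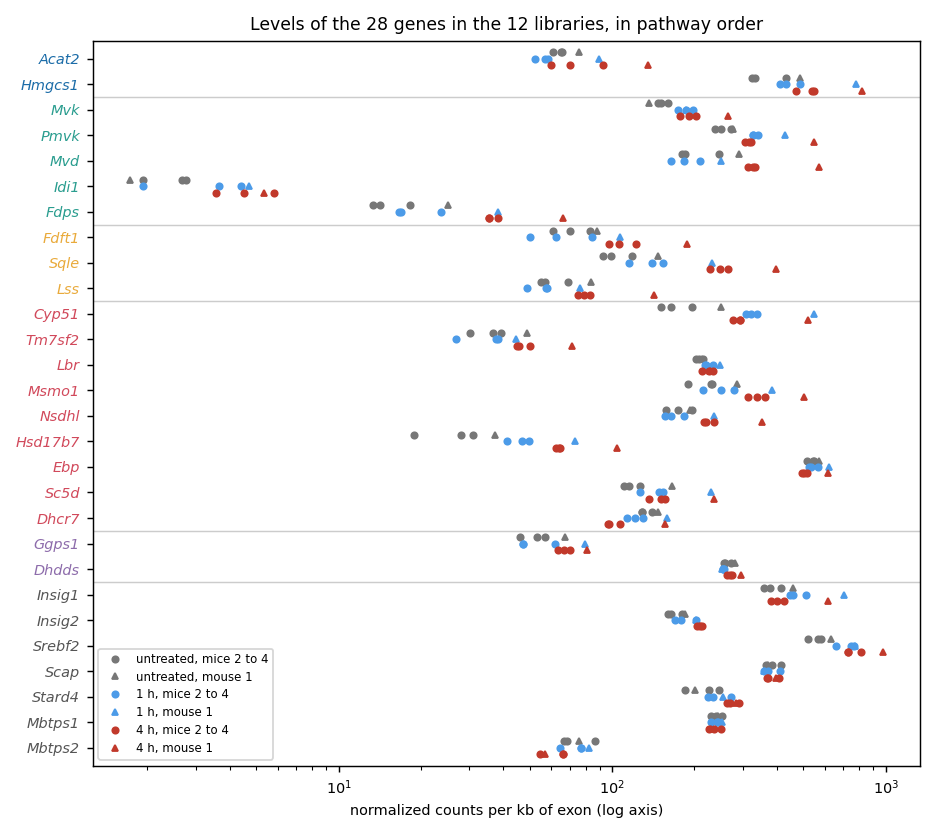
Normalized counts per kb of exon of each gene (x axis, log scale) in the 12 libraries, with genes in pathway order from top to bottom and gray lines between the steps of the pathway. Gray points are untreated BMDMs, blue points 1 h and red points 4 h of fenoterol, and triangles mark mouse 1. *Idi1* lies far to the left of the other genes, and at 4 h the triangle is the rightmost red point for 21 of the 28 genes.

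At 1 h of fenoterol, 4 of the 28 genes were higher and 0 were lower. They were *Cyp51*, lanosterol demethylase (log2 fold change 0.98 ± 0.23 SE, a fold of 1.98), *Hsd17b7* (0.87 ± 0.23), *Srebf2* itself (0.36 ± 0.09) and *Mvk*, mevalonate kinase (0.33 ± 0.11). Of all genes tested, 10.0% were higher and 10.1% lower at this time, and the 4 of 28 (14.3%) were near that share, but with the mouse as a block 11 of 28 were higher, against 13.3% of all genes. No gene of the 28 was lower at an unadjusted p under 0.05 either, nor with DESeq2 or limma-voom. The median log2 fold change over the 28 genes was 0.13, against -0.005 over all genes.

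*Cyp51* stood at 1108, 669, 724 and 865 normalized counts in untreated BMDMs and at 2412, 1418, 1491 and 1361 at 1 h. All 4 treated values lay above all 4 untreated values, with the highest in mouse 1 in both groups (adjusted p = 0.0070). *Hsd17b7* was at 190, 143, 96.5 and 158 before and at 372, 211, 253 and 239 after 1 h (adjusted p = 0.015), again without overlap. *Srebf2* went from 4527, 4060, 3726 and 4164 to 5576, 4734, 5381 and 5519 (adjusted p = 0.012). *Mvk* went from 364, 394, 405 and 428 to 498, 467, 531 and 496, so every treated value was above every untreated one, although its adjusted p was 0.047. *Cyp51* and *Srebf2* were called in each of the 12 fits that left out 1 library. *Hsd17b7* was called in 11, with an adjusted p of 0.056 without the 1 h library of mouse 1, and *Mvk* in only 2, those without the 4 h library of mouse 1 or of mouse 4.

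Over all genes tested, libraries of 1 mouse deviated together from their group means, so the mouse was also used as a block. Over the 28 genes alone, such deviations correlated at -0.084 to 0.75 within a mouse and at -0.69 to 0.56 between mice. With the block 11 of the 28 genes were higher and 0 lower, with 13.7% of all genes lower. The 7 genes added were *Hmgcs1*, *Pmvk*, *Sqle*, *Msmo1*, *Sc5d*, *Insig1* and *Stard4*. With the block and without mouse 1, *Msmo1* and *Stard4* were not called (adjusted p = 0.163 and 0.251). *Hmgcs1* was at 2226, 1527, 1492 and 1981 in untreated BMDMs and at 3577, 1892, 1987 and 2244 at 1 h, groups that overlapped (adjusted p = 0.20, and 0.00047 with the block). For *Insig1*, which holds the SCAP and SREBP2 complex in the ER, values of 1423, 1110, 1167 and 1281 were followed by 2181, 1419, 1584 and 1388, an increase of 0.40 ± 0.16 on the log2 scale (adjusted p = 0.10, and 0.00074 with the block). Without the 1 h library of mouse 1 the differences of *Hmgcs1* and *Insig1* were 0.18 and 0.23 in the fit without the block. With mouse 1 left out of every group, the same edgeR fit gave 0.29 and 0.30 (adjusted p = 0.13 and 0.022). Groups did not overlap for 6 of the 28 genes, all higher at 1 h, compared with 11.3% of all genes. Without the 1 h library of mouse 1 the 4 calls became 2, and without mouse 1 in all 3 groups they became 7.

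After 4 h, 15 of the 28 genes were higher and 1 was lower, against 19.7% and 20.4% of all genes. With the mouse as a block 20 were higher and 2 lower, against 23.6% and 23.8%, and without mouse 1 in any group 16 were higher and 1 lower. For 14 genes, every 4 h value exceeded every untreated value, which held for 18.7% of all genes. The median log2 fold change was 0.47 against 0.004 over all genes. The 15 genes were found along the pathway. They included *Hmgcs1*, 1 of 2 enzymes from acetyl-CoA to HMG-CoA, and all 5 enzymes from mevalonate to farnesyl diphosphate. Also among them were 2 of 3 enzymes of squalene and lanosterol, 4 of 9 from lanosterol to cholesterol and 3 of 7 regulators. The isoprenoid branch had 0 of 2.

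**Figure D2:**
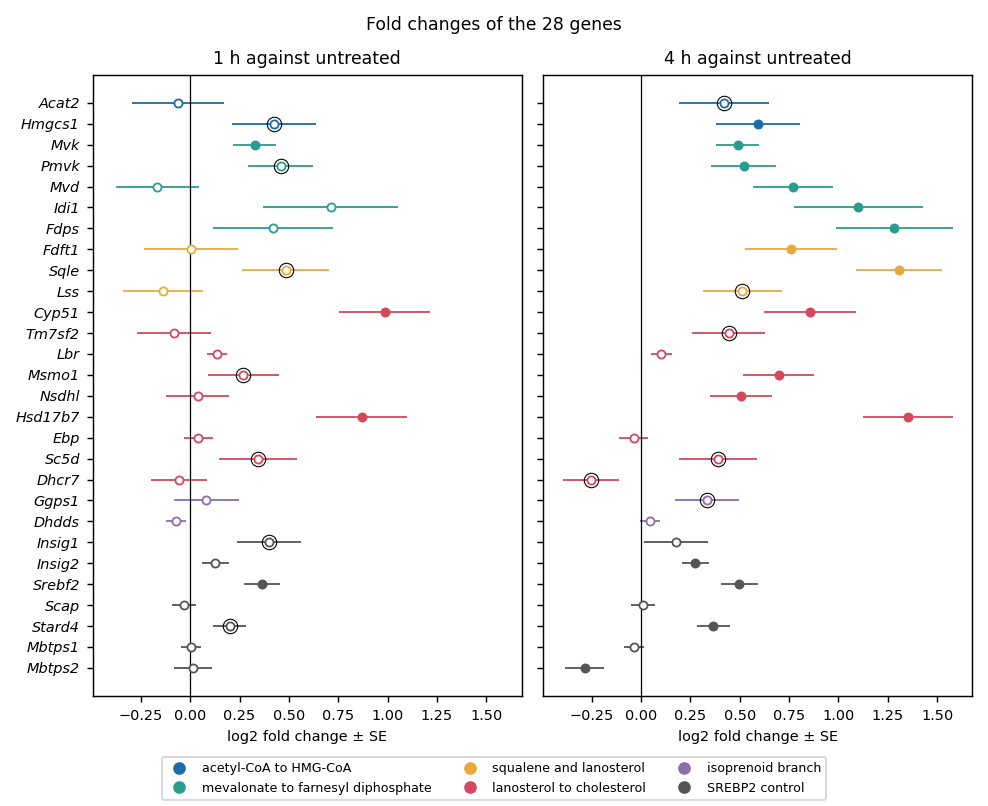
Log2 fold change against untreated BMDMs (x axis; bars are SE from edgeR) of the 28 genes in pathway order at 1 h (left) and 4 h (right), colored by step. Filled points were called at an adjusted p under 0.05, and open points with a black ring were called with the mouse as a block and not without it. At 1 h the filled points are *Mvk*, *Cyp51*, *Hsd17b7* and *Srebf2*; at 4 h there are 16, of which *Mbtps2* is the only one below 0.

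In the first steps, *Hmgcs1* rose to 3780, 2507, 2153 and 2471 at 4 h (0.59 ± 0.21, adjusted p = 0.038), and it was not called without the untreated library of mouse 2, 3 or 4 or the 4 h library of mouse 1 (adjusted p from 0.055 to 0.144). *Acat2*, the cytosolic thiolase, was at 193, 154, 167 and 165 before and at 345, 152, 235 and 179 at 4 h, and was called only with the block (adjusted p = 0.17, and 0.016 with it). Mouse 2 was level, and 39.1% of the 50-base stretches of *Acat2* transcripts are shared with *Acat3*, which held 3 counts in all, and 11.2% with *Tcp1*, which held 36979 against 2254 for *Acat2*, so its counts are uncertain. Without the 4 h library of mouse 1 the difference of *Acat2* was 0.15, against 0.42 with it.

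The 5 enzymes that turn mevalonate into farnesyl diphosphate rose without exception, and none of their 4 h groups overlapped with the untreated group. *Mvk* rose to 709, 509, 542 and 474 (0.49 ± 0.11, adjusted p = 0.0021) and *Pmvk*, phosphomevalonate kinase, from 474, 406, 467 and 430 to 936, 526, 550 and 544 (0.52 ± 0.16). Without the 4 h library of mouse 1 the difference of *Pmvk* was 0.28, and without mouse 1 in any group *Mvk* and *Pmvk* both differed by 0.31 and were still called. *Mvd*, the decarboxylase that follows, showed a late course. It was at 541, 335, 344 and 456 in untreated BMDMs, at 464, 304, 341 and 390 at 1 h, lower in each mouse without passing the test, and at 1064, 608, 620 and 585 at 4 h (0.77 ± 0.20, adjusted p = 0.0074). *Fdps* rose from 106, 56.3, 59.8 and 76.5 to 277, 161, 149 and 149 (1.28 ± 0.29, a fold of 2.43), with the reservation on shared sequence above. *Idi1* rose from 6.06, 9.38, 6.75 and 9.69 to 18.8, 12.5, 15.7 and 20.3 (1.10 ± 0.33, adjusted p = 0.015), but its libraries held few reads and without mouse 1 it was not called (adjusted p = 0.098).

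*Sqle*, squalene epoxidase, a rate-limiting enzyme of the pathway, was at 817, 513, 551 and 655 in untreated BMDMs, at 1290, 637, 777 and 851 at 1 h and at 2201, 1467, 1264 and 1371 at 4 h. The 4 h group was wholly above the untreated group, by 1.31 ± 0.22 on the log2 scale (a fold of 2.47, adjusted p = 0.00023), and the difference within a mouse was 1.07 to 1.51. *Fdft1*, squalene synthase, rose from 373, 298, 257 and 351 to 797, 517, 447 and 413 (0.76 ± 0.23, adjusted p = 0.018). Of its exon bases, 18.3% lie opposite to *Ctsb*, a lysosomal protease with 4932510 counts in the 12 libraries against 4760 for *Fdft1*, and the strand setting of the counting is not given in the sources used here. *Lss*, lanosterol synthase, was at 904, 594, 614 and 745 before and 1531, 811, 899 and 852 at 4 h, higher in 4 of 4 mice but not called (0.51 ± 0.20, adjusted p = 0.055). It was called with the block (adjusted p = 4.7e-05) and without mouse 1 (0.0091), and its difference was 0.25 without the 4 h library of mouse 1.

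From lanosterol to cholesterol the response was uneven. *Hsd17b7* rose to 530, 319, 330 and 328 at 4 h (1.35 ± 0.23, a fold of 2.55, adjusted p = 0.00025), a difference within the error of those of *Sqle* and *Fdps*. *Cyp51* stood at 2302, 1300, 1227 and 1293, 0.86 ± 0.23 above untreated BMDMs, and *Msmo1*, the C4-methyl oxidase, rose from 1754, 1166, 1420 and 1410 to 3103, 2228, 1935 and 2076 (0.70 ± 0.18). *Nsdhl*, which acts in the same demethylation, rose from 552, 449, 496 and 560 to 1010, 671, 618 and 630 (0.51 ± 0.16, adjusted p = 0.020). The other 5 enzymes of these steps were not called. *Tm7sf2* and *Lbr*, both sterol C14-reductases, differed by 0.44 ± 0.19 and 0.10 ± 0.05, and *Sc5d*, the C5-desaturase, by 0.39 ± 0.20. *Tm7sf2* and *Sc5d* were called with the block (adjusted p = 0.0037 and 0.00030). Without the 4 h library of mouse 1 their differences were 0.27 and 0.19. With mouse 1 left out of every group they were 0.41 and 0.34 (edgeR without the block, adjusted p = 0.068 and 0.013). *Tm7sf2* shares 12.1% of its exon bases with the neighboring gene *Vps51*. *Ebp* differed by -0.04 ± 0.07.

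*Dhcr7*, the reductase of the last step, went the other way in most mice. It was at 859, 747, 748 and 812 in untreated BMDMs and at 908, 565, 623 and 563 at 4 h, lower in 3 of 4 mice and slightly higher in mouse 1. Its difference of -0.26 ± 0.14 was not called (adjusted p = 0.17), but it was lower with the block (adjusted p = 0.0095) and without mouse 1 (-0.40, adjusted p = 0.0015), and at -0.44 without the 4 h library of mouse 1.

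Neither gene of the isoprenoid branch was called at 4 h. *Dhdds*, a subunit of the enzyme that starts dolichol synthesis, was at 1062, 982, 1032 and 969 before and at 1117, 1017, 1042 and 999 at 4 h, a difference of 0.04 ± 0.05. *Ggps1*, which makes geranylgeranyl diphosphate, differed by 0.33 ± 0.16 (adjusted p = 0.12, and 0.0062 with the block).

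Among the regulators, *Srebf2* was also higher at 4 h than in untreated BMDMs, at 7015, 5224, 5824 and 5219 (0.50 ± 0.09, a fold of 1.41, adjusted p = 0.00056). *Stard4*, a carrier of sterol between membranes, rose from 1124, 1033, 1373 and 1258 to 1582, 1627, 1504 and 1464 (0.37 ± 0.08, adjusted p = 0.0030). *Insig2*, the second INSIG gene, rose by a small amount, from 643, 556, 623 and 572 to 728, 726, 709 and 740 (0.28 ± 0.07, adjusted p = 0.0047), whereas *Insig1* was at 1899, 1320, 1183 and 1238 at 4 h, 0.18 ± 0.16 above untreated BMDMs (adjusted p = 0.42, and a difference of 0.001 without the 4 h library of mouse 1). *Scap* (0.01 ± 0.06) and *Mbtps1* (-0.04 ± 0.05) were not called at either time. *Mbtps2* fell from 762, 676, 876 and 693 to 576, 669, 553 and 670 (by 0.29 on the log2 scale, adjusted p = 0.030). The groups did not overlap, but mice 2 and 4 differed by only -0.01 and -0.05, and without mouse 1 the gene was not called (adjusted p = 0.13), nor without the library of mouse 1 or mouse 3 in either group (adjusted p from 0.062 to 0.093). It shares 28.4% of its exon bases with *Yy2*, which held 0 counts.

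The differences within each mouse were positive in all 4 mice for the 15 genes called higher at 4 h. Their median was 0.97 in mouse 1, 0.72 in mouse 2, 0.64 in mouse 3 and 0.36 in mouse 4. Of the 15 genes, 10 were called in all 12 fits that left out 1 library. Besides *Hmgcs1*, *Idi1* was lost without the untreated library of mouse 1 (adjusted p = 0.051), *Pmvk* without that of mouse 2 or 4 (0.054 and 0.052), *Fdft1* without the untreated library of mouse 3 or the 4 h library of mouse 1 (0.059 and 0.071), and *Nsdhl* without the untreated library of mouse 2 or 3 or the 4 h library of mouse 1 (0.051 to 0.062), where its difference was 0.31. Mouse 4 had the smallest of the 4 differences in 10 of the 15 genes and mouse 1 the largest in 8. Since these 15 genes were chosen for being higher, their sign in each mouse is no support. Over all 28 genes, 26, 22, 24 and 22 were above 0 in mice 1 to 4, with medians of 0.70, 0.38, 0.33 and 0.24.

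**Figure D3:**
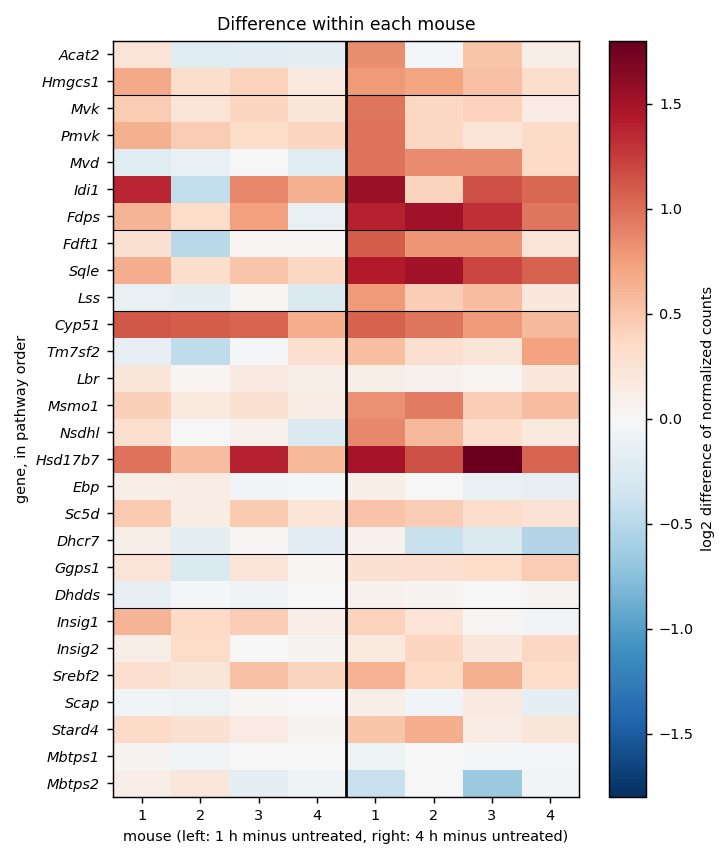
Log2 difference of normalized counts within each mouse, 1 h minus untreated (left 4 columns) and 4 h minus untreated (right 4 columns), for the 28 genes in pathway order; red is higher and blue lower than in the untreated cells of the same mouse. *Cyp51*, *Hsd17b7* and *Srebf2* are red in all 8 columns, whereas *Mvd* is blue or white at 1 h and red at 4 h.

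Between the time points, 7 genes were higher at 4 h than at 1 h and 1 was lower, against 18.7% and 19.8% of all genes. This comparison shares its libraries with those above. The 7 genes were *Mvd* (0.94 ± 0.21), *Fdps* (0.86 ± 0.29), *Sqle* (0.82 ± 0.21), *Fdft1* (0.75 ± 0.23), *Lss* (0.65 ± 0.20), *Tm7sf2* (0.53 ± 0.19) and *Nsdhl* (0.47 ± 0.16), and *Mbtps2* was lower by 0.30 ± 0.10 on the log2 scale. Over all 28 genes, 15 were higher and 4 lower in all 4 mice. *Lss*, for example, was at 826, 528, 624 and 621 at 1 h, below its untreated value in 3 of 4 mice, before it reached its 4 h values. With the block 12 genes were higher and 3 lower, against 23.0% and 23.6%. The count of higher genes was 2 without the 1 h library of mouse 2 or of mouse 3 or the 4 h library of mouse 1, 4 without the 1 h library of mouse 4, and 11 without the 1 h library of mouse 1. *Mvd* and *Sqle* were called in all 12 of these fits. *Mbtps2* was lost without the library of mouse 1 or 2 at 1 h or of mouse 1 or 3 at 4 h (adjusted p from 0.057 to 0.080), and without mouse 1 altogether (0.185). Without the 4 h library of mouse 1 the differences of *Lss* and *Nsdhl* were 0.39 and 0.28 and were not called. Scaling by library size only raised the median of all genes by 0.0925 and gave 12 higher and 0 lower.

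*Cyp51* and *Srebf2* were not called between 4 h and 1 h, with differences of -0.13 ± 0.23 (95% interval -0.64 to 0.38) and 0.13 ± 0.09 (-0.07 to 0.34). For *Insig1*, 4 h values were below 1 h values in 4 of 4 mice, with a difference of -0.22 ± 0.16 (adjusted p = 0.30, and 0.019 with the block). Without mouse 1 in any group it was also lower (adjusted p = 0.039), but single libraries moved the value widely in the fit without the block, to -0.056 without the 1 h library of mouse 1 (adjusted p = 0.80), to -0.15 without the 4 h library of mouse 3 and to -0.40 without the 4 h library of mouse 1 (adjusted p = 0.039).

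**Figure D4:**
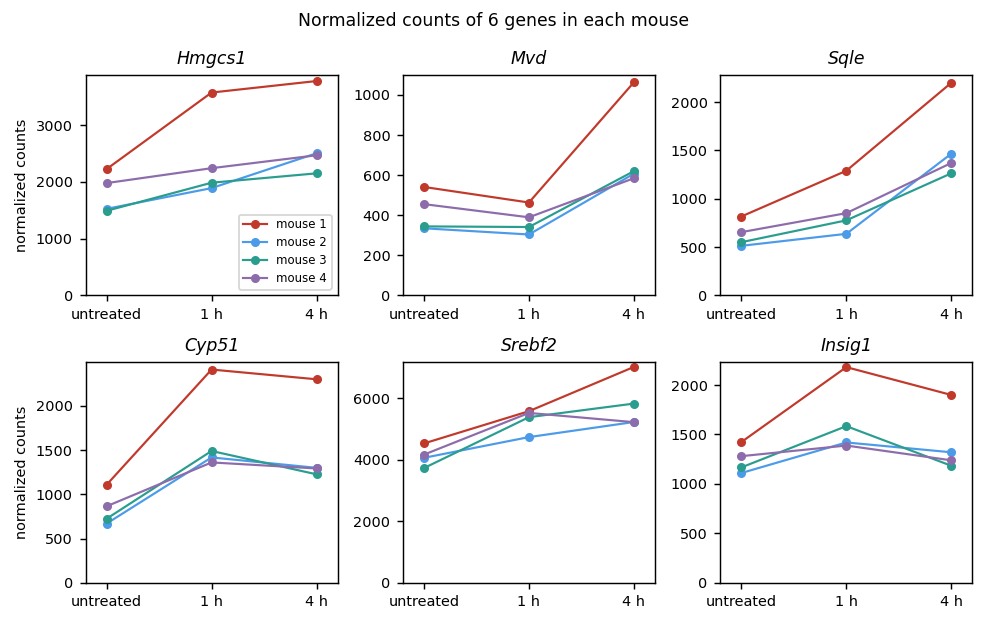
Normalized counts (y axis, from 0) of 6 genes in untreated BMDMs and after 1 h and 4 h of fenoterol, with 1 line per mouse. *Cyp51* is higher at 1 h in every mouse and about level afterwards, *Mvd* is higher only at 4 h, *Insig1* is highest at 1 h, and the red line of mouse 1 lies above the other 3 in all 6 panels.

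Other genes that SREBP proteins are known to drive, mostly for fatty acid synthesis, were looked at as a list of 14. At 1 h 0 of 14 were called with edgeR, against 10.0% of all genes higher and 10.1% lower (1 was higher and 1 lower at an unadjusted p under 0.05, DESeq2 called 1 higher, limma-voom 0, and the block 3 higher and 1 lower, against 13.3% and 13.7%). At 4 h 6 were higher, against 19.7% of all genes, and 1 was lower, against 20.4%. With the block 10 were higher and 1 lower, against 23.6% and 23.8%, and the list had a median log2 fold change of 0.39. *Scd2*, a stearoyl-CoA desaturase, rose from 2506, 1161, 1734 and 1396 to 8516, 4088, 4324 and 4288 at 4 h (1.64 ± 0.29, adjusted p = 0.00039), after 2916, 1367, 2004 and 1616 at 1 h. *Elovl6*, which lengthens palmitate, rose by 1.47 ± 0.18, with 150, 130, 128 and 159 before and 485, 376, 338 and 379 at 4 h. *Acss2*, which makes acetyl-CoA from acetate, fell by 0.71 on the log2 scale at 4 h (adjusted p = 0.0041). It went from 305, 474, 378 and 544 to 308, 274, 233 and 221, so mouse 1 did not fall. *Mmab*, a cobalamin enzyme encoded beside *Mvk*, was higher at 4 h than at 1 h by 0.52 ± 0.10.

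Genes that use isoprenoids for dolichol, ubiquinone and prenylated proteins were called in both directions, 1 higher and 1 lower of 14 at 1 h (10.0% and 10.1% of all genes) and 3 higher and 3 lower at 4 h (19.7% and 20.4% of all genes), with a median of 0.003, so both counts were near the background. *Nus1*, the partner of DHDDS in dolichol synthesis, rose from 1573, 1485, 1782 and 1516 to 2523, 2107, 2226 and 1878 at 1 h (0.46 ± 0.08) and to 2945, 3013, 2881 and 3150 at 4 h (0.91 ± 0.08, adjusted p = 5.1e-07), with all 4 h values above all 1 h values. *Icmt*, which methylates prenylated proteins, rose by 0.62 ± 0.06 at 4 h, and *Dolpp1* was higher at 4 h than at 1 h by 0.42 ± 0.08. *Dolk*, dolichol kinase, fell by 0.29 on the log2 scale at 1 h and by 0.40 at 4 h.

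The ER machinery that marks and removes sterol-regulated proteins, a list of 14, had 6 higher and 1 lower at 1 h, against 10.0% and 10.1% of all genes, and 7 higher and 1 lower at 4 h, against 19.7% and 20.4%, with medians of 0.13 and 0.24. *Erlin1*, a membrane protein of this machinery, peaked early. It was at 1217, 1104, 1196 and 1157 in untreated BMDMs, at 1945, 2161, 1965 and 1828 at 1 h (0.76 ± 0.07, adjusted p = 1.0e-06) and at 1353, 1520, 1242 and 1403 at 4 h, which was lower than at 1 h by 0.52 on the log2 scale. *Rnf145*, a ubiquitin ligase with a sterol-sensing domain, rose by 0.56 ± 0.07 at 1 h and 0.50 ± 0.07 at 4 h. *Nploc4* and *Ube2g2*, which extract and ubiquitinate such proteins, rose by 0.33 ± 0.05 and 0.31 ± 0.05 at 4 h. *Usp20*, a deubiquitinase, fell by 0.37 on the log2 scale at 1 h and was higher again at 4 h than at 1 h by 0.33 ± 0.08.

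Of 5 partners of SREBP, 1 was higher and 0 were lower at 1 h, against 10.0% and 10.1% of all genes, and 2 and 3 with the block, against 13.3% and 13.7%. At 4 h 2 were higher, against 19.7%. *Paqr3*, which tethers the SCAP complex at the Golgi, rose at 1 h (0.69 ± 0.20, adjusted p = 0.024) from 29.4, 29.5, 33.8 and 32.3 to 51.4, 51.8, 53.0 and 46.2. At 4 h the NF-Y subunits *Nfya* (0.34 ± 0.06) and *Nfyb* (0.43 ± 0.09) rose. The subunit *Nfyc* was not called at 4 h, with a mean of 308 before and 281 at 4 h. *Nfya* was also higher at 4 h than at 1 h by 0.51 ± 0.06. Its 1 h values of 2266, 2312, 2031 and 2066 were below the untreated 2606, 2405, 2311 and 2446 in each mouse, without a call in the fit without the block.

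The list of genes for sterol esters, sterol transport and oxysterols had 1 of 14 higher and 6 lower at 4 h, against 19.7% and 20.4% of all genes, with a median of -0.21. At 1 h 3 were higher and 3 lower, against 10.0% and 10.1%. *Cyp27a1*, which makes 27-hydroxycholesterol, fell from 3056, 3616, 2963 and 3162 to 1272, 1703, 1328 and 1234 at 4 h (by 1.21 on the log2 scale, adjusted p = 3.4e-07). *Lipa*, the lysosomal acid lipase that frees cholesterol from its esters, was at 48482, 45723, 50889 and 45451 in untreated BMDMs, at 45009 to 53130 at 1 h and at 22665, 22412, 24333 and 24222 at 4 h (a fall by 1.03, adjusted p = 6.8e-09). *Ch25h*, which makes 25-hydroxycholesterol, fell from 13.0, 24.1, 19.3 and 10.8 to 3.08, 4.51, 1.96 and 1.03 at 1 h, counts too low for a firm size (log2 fold change -2.61 ± 0.65). *Stard5*, a sterol-binding protein, fell by 0.74 on the log2 scale at 1 h, and *Gramd1b*, which moves cholesterol from the plasma membrane to the ER, rose at 1 h by 0.62 ± 0.14 and was lower at 4 h than at 1 h by 0.66 ± 0.14 on the log2 scale.

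**Figure D5:**
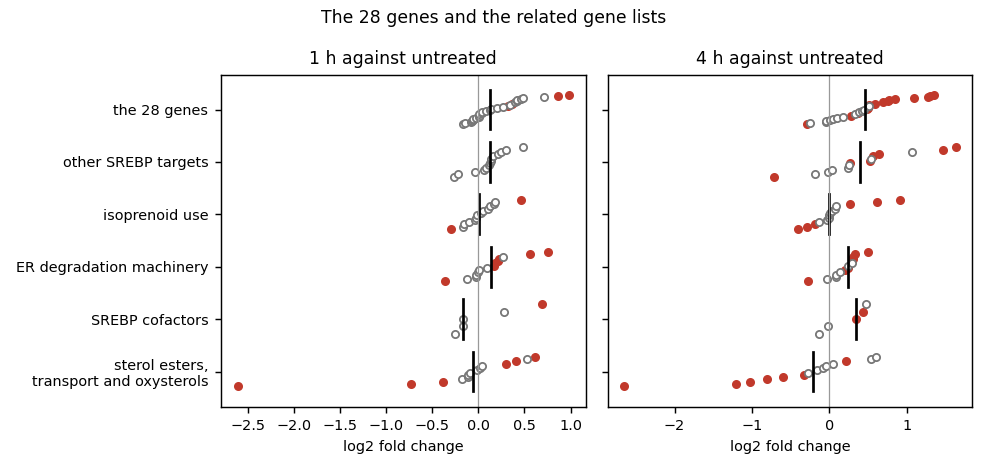
Log2 fold change against untreated BMDMs (x axis) at 1 h (left) and 4 h (right) of the 28 genes and of 5 related gene lists (y axis), with 1 point per gene. Red points were called at an adjusted p under 0.05, gray open points were not, and the black bar is the median of the list. At 4 h the median of the 28 genes is 0.47 and that of the sterol ester, transport and oxysterol genes is -0.21.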

How the data were processed

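RNA was measured in 12 libraries of BMDMs, 3 from each of 4 mice. The authors made stranded mRNA libraries, mapped single-end reads to GRCm38 with TopHat2 2.0.11, counted them per gene with HTSeq 0.8.0 and deposited raw counts, not normalized; the versions are those of the submitters' processing notes. The strand option and the annotation release are not given in the sources used here. Symbols, coordinates and exon lengths were taken from GENCODE M21.

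Genes were filtered with filterByExpr, scaled by TMM (factors 0.953 to 1.04) and tested with edgeR 4.0.16 in R 4.3.3, in 1 quasi-likelihood fit with 1 mean for each group and without covariates, and p-values were adjusted over the 12386 genes for each contrast. The study's methods name limma on variance-stabilized values. The SE is the log2 fold change divided by the square root of its F statistic. The biological coefficient of variation was 0.112. The numbers of the libraries name the mouse: deviations from the group means correlated at r = 0.292 to 0.563 (median 0.386, 12 pairs) within a mouse and at -0.297 to 0.0796 (36 pairs) between mice, over all genes tested. P-values given without the block treat the 12 libraries as independent, although libraries of 1 mouse deviated together. They set a change against the spread between mice within a group and do not use the pairing. The main counts of called genes come from this fit. P-values with the mouse as a block measure how consistent the change within a mouse was across the 4 mice. The differences within a mouse used normalized counts plus 0.5.

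The members and the lists were chosen with earlier results of these data known. Named were all 28 genes, up to 3 called genes of each related list and contrast with the largest change, and *Nr4a1*. The scripts were tested on simulated data. Alternatives were RLE factors, library size only, DESeq2 1.42.0, limma-voom (limma 3.58.1), no filter, a mean count of at least 50, 2 groups only, a stricter adjusted p of 0.01, a block on the mouse, each library left out, and 2 chosen after seeing the data, without mouse 1 with and without the block. Figures were drawn with matplotlib 3.10.9. Promoters of 4 genes and all protein sequences were not analysed here.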

Additional observations from a re-analysis of the deposited data

Results flagged for a closer look

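Of the 84 groups of 4 libraries (28 genes in 3 conditions), 10 held a value far from the other 3, with a gap whose share of the group's range was above Dixon's critical value, and chance flags about 5% of groups. All 10 were in mouse 1. At 1 h the gap took 0.843 of the range for *Acat2* (227 normalized counts against 133 to 148), 0.843 for *Pmvk* (736 against 559 to 587) and 0.877 for *Cyp51* (2412 against 1361 to 1491). At 4 h it took 0.942 for *Pmvk* (936 against 526 to 550), 0.926 for *Mvd* (1064 against 585 to 620), 0.908 for *Fdps* (277 against 149 to 161), 0.878 for *Lss* (1531 against 811 to 899), 0.932 for *Cyp51* (2302 against 1227 to 1300), 0.865 for *Nsdhl* (1010 against 618 to 671) and 0.952 for *Hsd17b7* (530 against 319 to 330).

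The change from untreated BMDMs differed between 1 h and 4 h, by the test of 4 h against 1 h, for 8 genes. The log2 difference was 0.94 for *Mvd*, 0.86 for *Fdps*, 0.75 for *Fdft1*, 0.82 for *Sqle*, 0.65 for *Lss*, 0.53 for *Tm7sf2*, 0.47 for *Nsdhl* and -0.30 for *Mbtps2* (edgeR, adjusted p from 0.0023 to 0.038).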

How the results depend on the processing

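Counts of called genes are given as higher and lower. The 4 and 0 at 1 h, 15 and 1 at 4 h and 7 and 1 at 4 h against 1 h became 11 and 0, 20 and 2, and 12 and 3 with the mouse as a block. The 2 alternatives chosen after seeing the data, without mouse 1, gave 7 and 0, 16 and 1, and 9 and 2, or with the block 9 and 0, 18 and 1, and 12 and 2. At an adjusted p under 0.01, 1 gene was higher at 1 h, 10 were higher and 0 lower at 4 h, and 2 were higher and 0 lower at 4 h against 1 h. Scaling by library size only gave 12 and 0 at 4 h against 1 h, with the median of all genes moved by -0.0686 at 1 h, 0.0239 at 4 h and 0.0925 between them. With 1 library left out, 2 to 6 genes were higher and 0 lower at 1 h, 12 to 16 higher and 0 to 1 lower at 4 h, and 2 to 11 higher and 0 to 2 lower at 4 h against 1 h. The lower count at 4 h was 0 without the untreated library of mouse 1 or 3 or the 4 h library of mouse 3. Between time points it was 0 without the 1 h library of mouse 1 or 2 or the 4 h library of mouse 3, and 2 without the 4 h library of mouse 1.

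No called gene changed sign. Among those not called, log2 fold changes at 1 h turned negative with library size only for *Fdft1* (-0.063), *Nsdhl* (-0.032), *Ebp* (-0.028), *Mbtps1* (-0.065) and *Mbtps2* (-0.057), for *Fdft1* with limma-voom (-0.039) and with the block (-0.0088), and without mouse 1, without and with the block, for *Fdft1* (-0.12 and -0.12), *Nsdhl* (-0.063 and -0.062), *Mbtps1* (-0.011 and -0.011) and *Mbtps2* (-0.027 and -0.029). Without mouse 1 the sign also turned for *Scap* at 4 h (-0.021, and -0.019 with the block) and *Pmvk* at 4 h against 1 h (-0.076 and -0.076), and with library size only for *Lbr* (0.060), *Ebp* (0.014) and *Mbtps1* (0.053) at 4 h against 1 h. With 1 library left out, values crossed 0 at 1 h for *Acat2* (-0.26 to 0.024), *Fdft1* (-0.21 to 0.16), *Tm7sf2* (-0.18 to 0.053), *Nsdhl* (-0.099 to 0.11), *Ebp* (-0.0092 to 0.081), *Dhcr7* (-0.16 to 0.0061), *Ggps1* (-0.095 to 0.19), *Scap* (-0.076 to 0.015), *Mbtps1* (-0.016 to 0.032) and *Mbtps2* (-0.034 to 0.099), at 4 h for *Scap* (-0.024 to 0.040), and between time points for *Hmgcs1* (-0.029 to 0.42), *Pmvk* (-0.18 to 0.16), *Cyp51* (-0.39 to 0.10), *Lbr* (-0.057 to 0.0036) and *Sc5d* (-0.15 to 0.25). The cause was not tested. *Idi1* had only 153 reads in all.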
